A study of Mus musculus with 4 samples.

Results

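The TAM receptors *Mertk*, *Axl* and *Tyro3* and the bridging ligands *Gas6*, *Pros1* and *Mfge8* were followed across 4 RNA-seq libraries of mouse macrophages. The members were taken by name: each row of the count table whose gene name equalled 1 of the 6 symbols, which gave 6 of the 54532 genes listed. All 6 were among the 13715 genes that reached 10 reads in some library, so none was lost to the filter on low counts. The study asked what the aryl hydrocarbon receptor (AHR) does in macrophages exposed to factors from breast cancer cells. Peritoneal macrophages of WT mice, elicited with thioglycollate in BALB/c mice per the study's methods, were cultured either in normal medium (0% 4T1) or in medium holding 30% of the supernatant of 4T1 cells, a mouse mammary carcinoma line (4T1-CM). Each medium was combined with DMSO, the solvent, or with 10 µM CH223191, an AHR antagonist, so that the 4 groups, written NM and CM for normal medium and 4T1-CM, were NM/DMSO, NM/CH223191, CM/DMSO and CM/CH223191. Values of 4 libraries are given in that order unless stated. Each condition was 1 library, with no replicates, and the duration of exposure for these libraries is not given in the sources used here.

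TAM receptors are receptor tyrosine kinases on macrophages and other cells that clear dying cells. *Gas6* and protein S, the product of *Pros1*, carry a vitamin K-dependent Gla domain that binds phosphatidylserine on the surface of a dying cell, and their other end binds the receptor, so that the ligand bridges the dying cell and the phagocyte. *Gas6* binds all members of the receptor family, and protein S binds *Mertk* and *Tyro3*. *Mfge8* is a bridging molecule of another kind: it binds phosphatidylserine with its discoidin domains and αv integrins with an attachment motif, and no TAM receptor. Besides driving engulfment, TAM receptors dampen cytokine and Toll-like receptor signalling in macrophages.

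A coding stretch that the receptors share and the integrin-binding site of *Mfge8* are shown first because they mark what each gene does. The receptors share a signature motif in the kinase domain, marked by capitals in the following coding stretches of 45 bases from the GENCODE M21 transcripts of GRCm38, written 5′ to 3′ on the gene's strand. They lie at chr2:128793037-128793081 on the plus strand in exon 17 of 19 (*Mertk*), at chr7:25761429-25761473 on the minus strand in exon 18 of 20 (*Axl*) and at chr2:119812894-119812938 on the plus strand in exon 17 of 19 (*Tyro3*).
Mertk: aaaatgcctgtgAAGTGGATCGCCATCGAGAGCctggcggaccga
Axl: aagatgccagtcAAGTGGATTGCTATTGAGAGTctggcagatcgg
Tyro3: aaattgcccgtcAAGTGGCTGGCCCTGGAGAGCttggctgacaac
Over these 45 bases, *Mertk* and *Axl* were identical at 35 positions, *Mertk* and *Tyro3* at 33, and *Axl* and *Tyro3* at 30. For *Mfge8*, a stretch of 33 bases at chr7:79145296-79145328 on the minus strand, in exon 3 of 10, holds the integrin attachment motif, again in capitals.
Mfge8: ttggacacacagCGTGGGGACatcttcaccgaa
The annotation is that of the C57BL/6 strain, whereas the cells were from BALB/c mice.

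In GRCm38 the receptor genes are *Mertk* (ENSMUSG00000014361, chr2:128698956-128802894, plus strand), *Axl* (ENSMUSG00000002602, chr7:25757273-25788705, minus strand) and *Tyro3* (ENSMUSG00000027298, chr2:119797733-119818104, plus strand). The ligand genes are *Gas6* (ENSMUSG00000031451, chr8:13465374-13494490, minus strand), *Pros1* (ENSMUSG00000022912, chr16:62854307-62929346, plus strand) and *Mfge8* (ENSMUSG00000030605, chr7:79133768-79149060, minus strand). Despite the shared motif, 0 of the 50-base words in the transcripts of any member occurred in a transcript of another gene. *Gas6* alone overlapped exons of another gene, with 34 bases (1.33% of its exons) lying over *Tmem255b* on the opposite strand, and whether the counting used strand is not stated.

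The libraries held between 15535405 and 17557127 reads assigned to genes. A count of 3 reads, taken as the limit of detection, corresponded to 0.171 to 0.189 CPM (counts scaled to library size, after TMM), and the lowest member count was 14 reads. Mitochondrial genes took 0.633% of reads in NM/DMSO, 1.17% in NM/CH223191, and 1.76% and 1.79% in 4T1-CM. All 8 macrophage markers were detected, and they too moved with the medium: they summed to 19044 and 23477 CPM in NM and 45208 and 48206 CPM in CM, with 5 of 8 at least 2-fold higher with DMSO, 4 with CH223191 and 0 lower. The defining markers of resident large peritoneal macrophages were low, with 20 to 41 reads of *Gata6* and at most 3 of *Timd4*. T cells had 5 of 6 markers at 0. Neutrophils had *S100a9*, *Ly6g* and *Retnlg* at 0, but *S100a8* had 99, 190, 560 and 412 reads. Eosinophils had *Epx* and *Prg2* at 0, but *Siglecf* had 251, 221, 105 and 88 reads. On the B cell list *Ighm* had 317, 540, 128 and 67 reads. Fibroblast markers moved with the medium: the 6 genes summed to 63.0 and 30.1 CPM in normal medium and 149 and 127 CPM in 4T1-CM, with 4 of the 6 at least 2-fold higher in 4T1-CM at either inhibitor state, none at 0 in all libraries and *Lum* at 3 reads or fewer. The sum of the endothelial markers was 112 and 81.1 CPM in NM and 46.0 and 40.1 CPM in CM, but the list went both ways: *Vwf* carried the sum (1540, 1133, 491 and 409 reads), while *Cdh5* (14, 10, 60 and 37 reads) and *Pecam1* (3, 1, 31 and 22 reads) were higher in CM. Epithelial markers summed to at most 1.35 CPM. Fibroblasts and endothelial cells also use *Axl*, *Gas6*, *Pros1* and *Mfge8*, and the part of any of these cell types in the members' values was not tested. In bulk RNA, more cells of a type and more RNA per cell cannot be told apart.

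Per kilobase of gene length, *Mfge8* was the most abundant member in every library. Its level was 95.2 and 94.6 RPKM (reads per kilobase of gene, scaled to library size as CPM) in NM/DMSO and NM/CH223191, and 135 and 130 RPKM in CM/DMSO and CM/CH223191. Between 96.3% and 97.8% of the genes kept had a lower RPKM. *Pros1* followed in all but 1 library, at 22.2, 17.7, 18.03 and 18.1 RPKM. *Mertk*, the receptor that macrophages use most for engulfment, stood at 12.5, 15.7, 16.5 and 20.5 RPKM. *Gas6* stood at 15.04, 12.02, 7.80 and 7.01 RPKM. *Axl* reached 1.63, 2.67, 4.54 and 3.85 RPKM, and *Tyro3* was lowest throughout, at 0.324, 0.213, 0.138 and 0.139 RPKM. *Tyro3* thus rested on few reads and had the widest counting intervals of the members relative to its level.

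The order of the levels changed in the middle. In NM/DMSO, *Gas6* lay above *Mertk*, and their exact Poisson 95% intervals did not overlap (13.9 to 16.3 RPKM against 11.6 to 13.3 RPKM). In the other libraries *Mertk* lay above *Gas6*. *Mertk* and *Pros1* were neighbours in those libraries: *Pros1* was higher in NM/CH223191, their intervals overlapped in CM/DMSO (15.6 to 17.5 RPKM for *Mertk*, 17.1 to 19.0 RPKM for *Pros1*), and *Mertk* was higher in CM/CH223191 (19.5 to 21.6 RPKM against 17.1 to 19.2 RPKM). These intervals cover counting error only. Without the division by length, 2 members changed rank in 3 of the 4 libraries: in NM/DMSO the order of *Gas6* and *Mertk* turned (38.3 CPM against 54.0 CPM), and in both CM libraries that of *Gas6* and *Axl*.

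Summed over the receptors, the level was 14.4 RPKM in NM/DMSO, 18.6 in NM/CH223191, 21.2 in CM/DMSO and 24.5 in CM/CH223191. *Mertk* made up 86.4%, 84.5%, 77.9% and 83.7% of that sum. *Axl* made up 11.3%, 14.4%, 21.4% and 15.7%, and *Tyro3* at most 2.25%. The receptor pool was therefore mainly *Mertk* in every library, with the *Axl* share highest in CM/DMSO. In reads, *Axl* took 13.2% (exact 95% interval 11.2 to 15.5) of the reads of *Axl* and *Mertk* in NM/DMSO, 16.5% (14.5 to 18.6) in NM/CH223191, 24.2% (22.1 to 26.3) in CM/DMSO and 17.9% (16.1 to 19.8) in CM/CH223191. The interval of CM/DMSO lay above those of the other libraries.

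The ligand pool was mainly *Mfge8*, which made up 71.9% and 76.1% of the summed RPKM of the ligands in normal medium and 83.9% and 83.8% in 4T1-CM. Between the TAM ligands themselves, *Pros1* exceeded *Gas6* by 1.48-fold and 1.47-fold per length in normal medium and by 2.31-fold and 2.58-fold in 4T1-CM. *Gas6* took 29.7% of the reads of *Gas6* and *Pros1* in both libraries in normal medium, and 21.2% and 19.4% in 4T1-CM. The share of *Gas6* was lower in both 4T1-CM libraries, and its intervals there did not overlap those in normal medium.

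**Figure D1:**
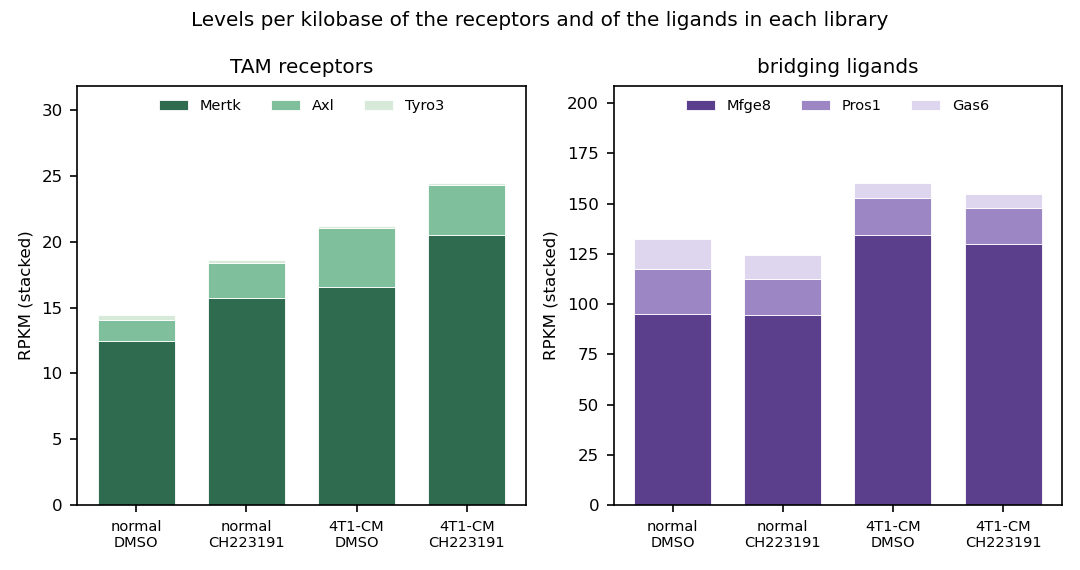
Stacked bars give the level of each receptor (left) and each ligand (right) in RPKM in the 4 libraries, 1 library per bar. The receptor sum runs from 14.4 to 24.5 RPKM with *Mertk* as the main part, and the ligand sum from 124 to 160 RPKM with *Mfge8* as the main part.

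To ask how factors from the tumour cells bear on the receptors, the 4T1-CM library was compared with the normal medium library at the same inhibitor state. *Axl*, the receptor that inflammatory and interferon signals induce in macrophages, had 131 reads (8.22 CPM) in NM/DMSO, 214 (13.5 CPM) in NM/CH223191, 400 (22.8 CPM) in CM/DMSO and 315 (19.4 CPM) in CM/CH223191. Both 4T1-CM libraries were above both normal medium libraries. With DMSO the level in 4T1-CM was 2.77-fold that in normal medium (log2 ratio 1.47, exact 95% counting interval 1.19 to 1.77), and 7.43% of the genes kept had a larger ratio. With CH223191 it was 1.44-fold (log2 ratio 0.53, 0.27 to 0.78).

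*Mertk* had 861 reads (54.0 CPM) in NM/DMSO, 1083 (68.1 CPM) in NM/CH223191, 1255 (71.7 CPM) in CM/DMSO and 1444 (88.9 CPM) in CM/CH223191. Its levels in the media did not overlap, although NM/CH223191 lay just below CM/DMSO. The 4T1-CM to normal medium ratio was 0.41 (0.28 to 0.54) on the log2 scale with DMSO and 0.38 (0.27 to 0.50) with CH223191, with 25.9% and 28.8% of the genes kept having a larger ratio. *Tyro3*, the receptor best known from the nervous system, had 32, 21, 15 and 14 reads, or 2.01, 1.32, 0.857 and 0.862 CPM. Both 4T1-CM libraries were lower, with log2 ratios of -1.20 (-2.22 to -0.30) with DMSO and -0.60 (-1.70 to 0.43) with CH223191, the latter interval holding 0.

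Among the ligands, *Gas6* had 611 reads (38.3 CPM) in NM/DMSO, 487 (30.6 CPM) in NM/CH223191, 348 (19.9 CPM) in CM/DMSO and 290 (17.9 CPM) in CM/CH223191. It was lower in both 4T1-CM libraries than in both normal medium libraries. The log2 ratio was -0.95 (-1.14 to -0.75) with DMSO and -0.78 (-0.99 to -0.57) with CH223191. *Gas6* thus stayed short of a 2-fold difference by counts, at 1.93-fold and 1.71-fold lower.

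*Pros1*, which encodes the anticoagulant protein S, had 1446 reads (90.7 CPM), 1151 (72.4 CPM), 1290 (73.7 CPM) and 1202 (74.0 CPM). Normal medium with DMSO was above the other libraries, which lay within 72.4 to 74.0 CPM. The 4T1-CM ratio was accordingly -0.30 (-0.41 to -0.19) with DMSO and 0.03 (-0.09 to 0.15) with CH223191. *Mfge8* had 7126 reads (447 CPM), 7064 (444 CPM), 11055 (632 CPM) and 9895 (609 CPM), both 4T1-CM libraries being higher. Its log2 ratio was 0.50 (0.46 to 0.54) with DMSO and 0.46 (0.41 to 0.50) with CH223191.

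**Figure D2:**
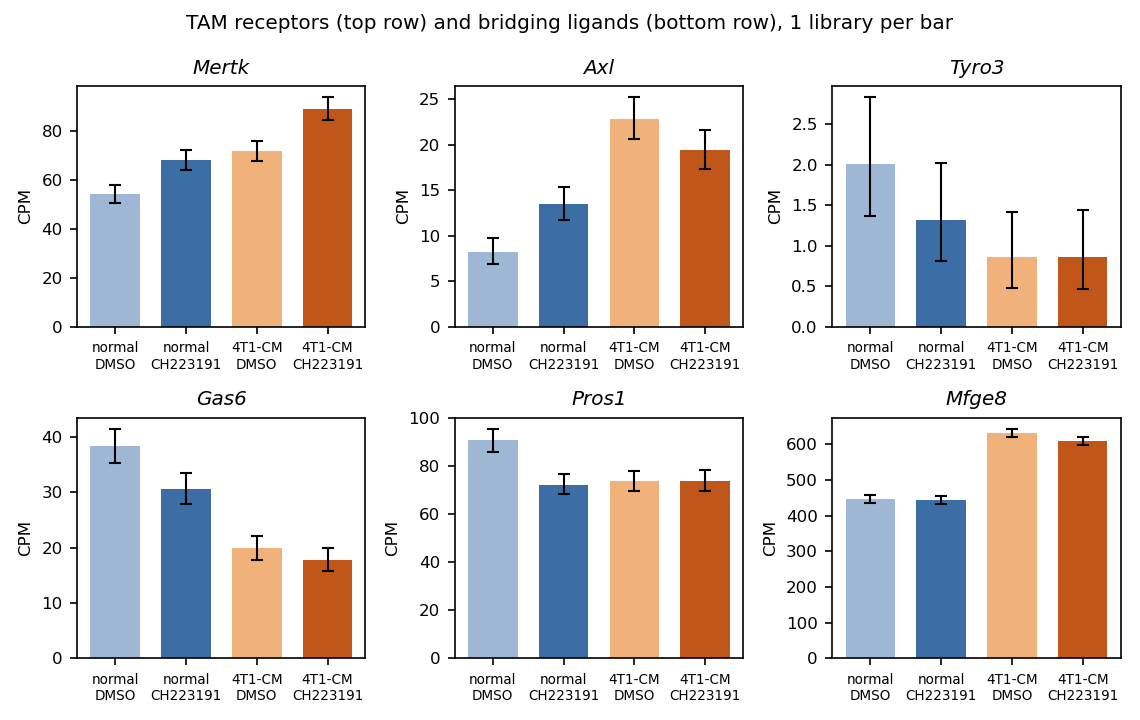
Bars give the CPM of each receptor (top row) and ligand (bottom row) in the 4 libraries, 1 library per bar, with exact Poisson 95% intervals as error bars and a separate axis from 0 for each gene. *Axl*, *Mertk* and *Mfge8* are higher and *Gas6* and *Tyro3* lower in both 4T1-CM libraries, and *Pros1* is highest in NM/DMSO.

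Counted against a threshold of 2-fold, 1 of the 6 members was higher in CM/DMSO than in NM/DMSO (*Axl*) and 1 was lower (*Tyro3*). Of all genes kept, 12.2% passed 2-fold upwards and 6.12% downwards in that comparison. With CH223191, 0 members were at least 2-fold higher and 0 lower, against 12% and 7.86% of all genes. The median log2 ratio of the members was 0.05 with DMSO and 0.21 with CH223191, against 0.01 and 0.02 over all genes kept. The counting interval lay above 0 for 3 members (*Mertk*, *Axl* and *Mfge8*) at either inhibitor state. It lay below 0 for 3 members (*Tyro3*, *Gas6* and *Pros1*) with DMSO and for 1 (*Gas6*) with CH223191. The intervals compare 2 libraries and not the conditions, since no replicate shows how much libraries of 1 condition vary.

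**Figure D3:**
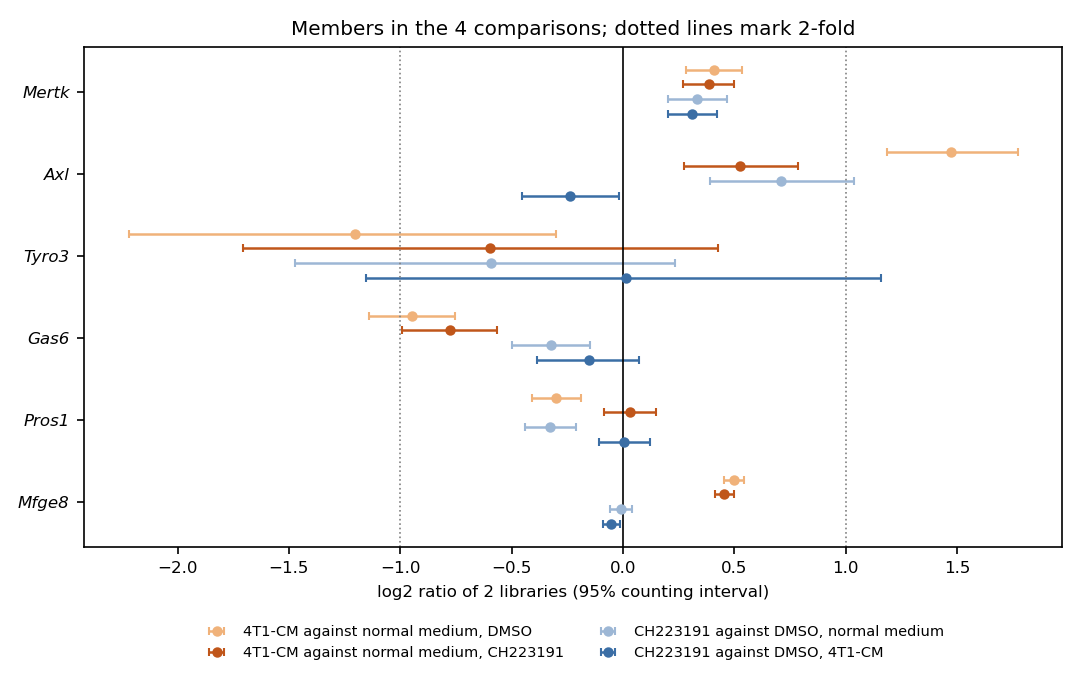
Points give the log2 ratio of each member in the 4 comparisons and bars the exact 95% counting interval; dotted lines mark 2-fold. Only the points of *Axl* and *Tyro3* with DMSO lie past a dotted line, and the points of *Axl* differ most between comparisons.

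To ask what the AHR antagonist does, the CH223191 library was compared with the DMSO library in the same medium. *Mertk* was higher with CH223191 in both media, by a log2 ratio of 0.33 (0.20 to 0.47) in NM and 0.31 (0.20 to 0.42) in CM, and it alone had both intervals on the same side of 0. In 4T1-CM, 13.2% of the genes kept had a larger ratio than *Mertk*. *Axl* differed in direction: 0.71 (0.39 to 1.04) in NM and -0.24 (-0.45 to -0.02) in CM. The summed fibroblast markers were lower with CH223191 in NM (30.1 CPM, against 63.0 CPM with DMSO), where *Axl* was higher. In CM both were lower with CH223191 (fibroblast sum 127 CPM, against 149 CPM with DMSO). With 4T1-CM both were higher at either inhibitor state. The fibroblast list was not uniform: in NM *Dcn* had 35 reads with DMSO and 45 with CH223191. With DMSO, *Pdgfra* had 91 reads in NM and 83 in CM. The part of fibroblasts in the *Axl* values was not tested. *Gas6* was lower with CH223191 in normal medium, at -0.32 (-0.50 to -0.15), and at -0.15 (-0.39 to 0.07) in 4T1-CM its interval held 0.

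*Pros1* was lower with CH223191 in normal medium, at -0.33 (-0.44 to -0.21), and level in 4T1-CM, at 0.01 (-0.11 to 0.12). *Mfge8* moved little, at -0.01 (-0.06 to 0.04) in the former and -0.05 (-0.09 to -0.01) in the latter. *Tyro3* had wide intervals that held 0 in both media, at -0.59 (-1.47 to 0.23) and 0.01 (-1.15 to 1.16). No member passed 2-fold in either direction with CH223191 in either medium. Of all genes kept, 4.84% did so upwards and 3.31% downwards in normal medium, and 2.8% and 2.62% in 4T1-CM. These comparisons share their libraries with those of the medium, so the values are set side by side and not related.

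The response to 4T1-CM at the 2 inhibitor states can also be set against each other, since these comparisons share no library. The log2 response of *Axl* was 0.95 lower with CH223191 than with DMSO (difference -0.95, counting interval -1.32 to -0.57), and 6.78% of the genes kept had a lower difference. That of *Pros1* was 0.33 higher (0.17 to 0.49), with 20.0% of genes having a higher difference. The intervals of the other members held 0, at -0.02 (-0.19 to 0.14) for *Mertk*, 0.60 (-0.69 to 1.90) for *Tyro3*, 0.17 (-0.11 to 0.45) for *Gas6* and -0.04 (-0.10 to 0.02) for *Mfge8*. The same differences separate the CH223191 ratio in 4T1-CM from that in normal medium, so they restate those ratios and add no further result. Without replicates, no test of these differences was possible.

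**Figure D4:**
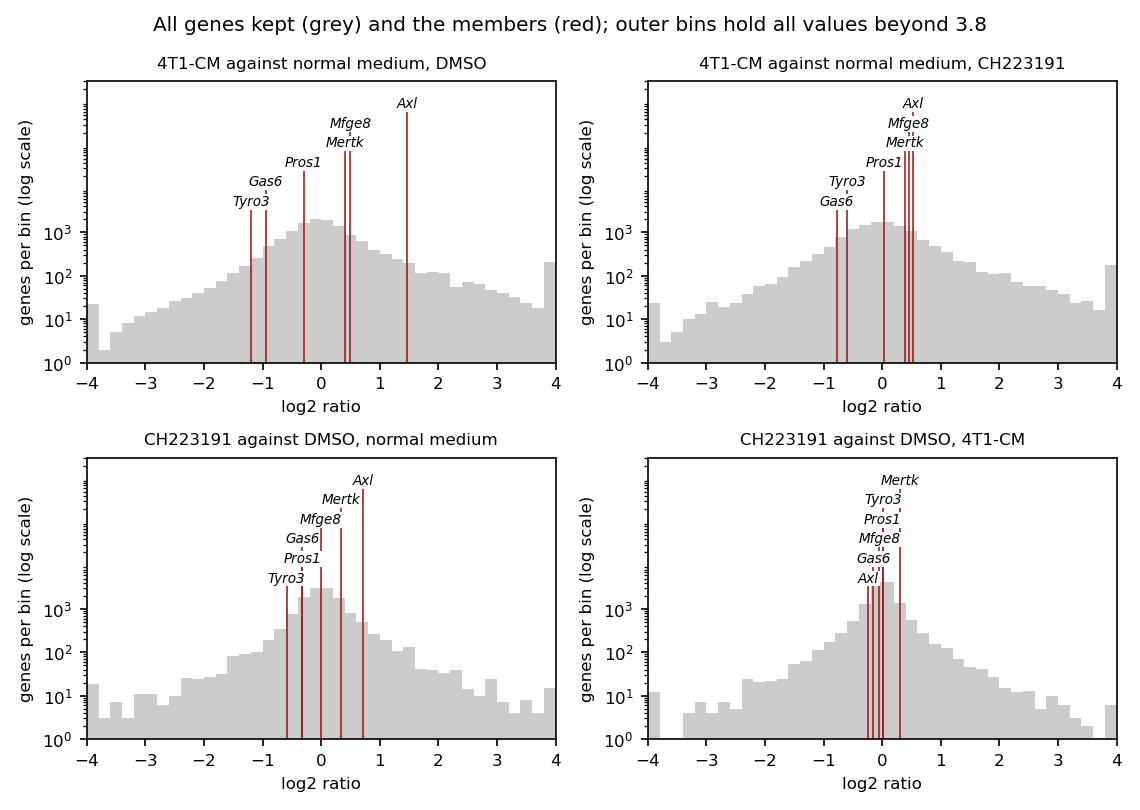
Grey bars count all 13715 genes kept by log2 ratio in each comparison on a log scale, with the outermost bins also holding all values beyond them, and red lines mark the members. *Axl* lies on the upper slope with DMSO, at a ratio that 7.43% of genes exceed, and in the comparison of CH223191 with DMSO in 4T1-CM 13.2% of genes exceed *Mertk* and 16.6% lie below *Axl*.

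Only the layout as a whole leaves room for a test: a fit with medium and inhibitor as additive terms has 1 residual degree of freedom and assumes that the effect of either does not depend on the other. Under edgeR's quasi-likelihood test with Benjamini-Hochberg adjustment over the 13715 genes, 3 members rose with 4T1-CM and 1 fell. *Axl* rose by 0.99 on the log2 scale (SE 0.218, adjusted p = 0.0059), *Mfge8* by 0.48 (SE 0.122, adjusted p = 0.0128) and *Mertk* by 0.40 (SE 0.122, adjusted p = 0.0293). *Gas6* fell by 0.86 (SE 0.142, adjusted p = 0.00104). *Pros1* (-0.13, SE 0.131, adjusted p = 0.463) and *Tyro3* (-0.93, SE 0.457, adjusted p = 0.141) did not pass in this edgeR fit. Over all genes, 16.4% rose and 16.2% fell with 4T1-CM (2248 and 2228 genes by edgeR, against 1205 and 1238 by DESeq2). For *Axl* the response differed between inhibitor states by the 0.95 given above, which the additive terms leave out. With DESeq2 the adjusted p of *Mertk* was 0.145, which did not pass the threshold of 0.05. For CH223191, 0 members were called by edgeR and 0.0729% of all genes rose and 0.00729% fell, which is 11 genes (880 at an unadjusted p under 0.05, and 14 called by DESeq2). The largest inhibitor estimates among the members were -0.34 for *Tyro3* and 0.32 for *Mertk*, with adjusted p from edgeR of 0.912 and 0.762.

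The promoters of the members were searched for the core of the AHR response element, GCGTG, and for the palindrome bound by STAT factors, TTCNNNGAA, on both strands, in the RefSeq table of GRCm38.p6 (6 of 6 matched), from 250 bases before to 50 bases after each start. The RefSeq start of *Tyro3* lay 1781 bases from the gene start given above, against 0 to 45 bases for the other members. GCGTG stood in the window of *Mertk* (45 to 49 bases past the start, on the opposite strand), *Tyro3* (positions -189 to -185) and *Mfge8* (positions -136 to -132), and TTCNNNGAA in that of *Pros1* alone (positions -92 to -84). Among 32851 promoters of that length, 32.4% held GCGTG and 8.30% held TTCNNNGAA, and the motifs cannot overlap each other. The 250 bases before the start are shown for the ligand with the highest level, *Mfge8* (chr7:79149061-79149310, minus strand, GCGTG in capitals), for the receptor whose ratios differed most, *Axl* (chr7:25788734-25788983, minus strand, no match), and for the member that fell in the additive fit, *Gas6* (chr8:13494536-13494785, minus strand, no match).
Mfge8: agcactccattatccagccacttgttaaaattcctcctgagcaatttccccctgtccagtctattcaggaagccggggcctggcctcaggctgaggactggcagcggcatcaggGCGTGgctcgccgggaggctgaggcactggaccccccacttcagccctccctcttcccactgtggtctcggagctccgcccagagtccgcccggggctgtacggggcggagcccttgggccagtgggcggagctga
Axl: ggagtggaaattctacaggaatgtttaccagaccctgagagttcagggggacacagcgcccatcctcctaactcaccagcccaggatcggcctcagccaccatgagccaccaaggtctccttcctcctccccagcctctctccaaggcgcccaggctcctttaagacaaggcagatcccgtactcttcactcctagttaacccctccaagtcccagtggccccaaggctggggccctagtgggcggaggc
Gas6: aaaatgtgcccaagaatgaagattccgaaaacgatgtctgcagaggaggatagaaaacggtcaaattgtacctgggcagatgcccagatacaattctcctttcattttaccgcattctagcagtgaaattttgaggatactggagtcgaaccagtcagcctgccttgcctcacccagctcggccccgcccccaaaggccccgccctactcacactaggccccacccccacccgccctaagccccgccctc
A match of 5 letters is a description of the sequence and no site. The members with the motif, *Mertk*, *Tyro3* and *Mfge8*, had inhibitor ratios of 0.33, -0.59 and -0.01 in normal medium, and those without it, *Axl*, *Gas6* and *Pros1*, had 0.71, -0.32 and -0.33.

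The genes whose profile over the 4 libraries was most like that of a member were named by the smallest root-mean-square difference of centred log2 CPM, over 9346 protein-coding genes whose mean was 5 CPM or more. For *Axl* these were *Iqcb1* (0.06), *Mt1*, a metallothionein (0.07), and *Dhx58*, a sensor of viral RNA (0.09). *Mt1* had 2537, 4542, 7473 and 6045 reads and *Dhx58* had 280, 387, 827 and 643, in the stated order. A profile of that shape was less common than those of the other members: 75 genes lay within 0.2 of *Axl*, against 222 for *Tyro3*, 650 for *Gas6*, 1374 for *Mertk*, 2468 for *Mfge8* and 3486 for *Pros1*. Nearest to *Mertk* were *D3Ertd254e*, *Pcnx4* and *A230050P20Rik*. Nearest to *Tyro3* were *Kifc1*, *1110065P20Rik* and *Crlf2*, and nearest to *Gas6* were *Mfsd3*, *Telo2* and *Cchcr1*. *Pros1* was most like *Tsn*, *Ccndbp1* and *Dis3l2*, and *Mfge8* most like *1110059E24Rik*, *Elmsan1* and *Uimc1*. Among the members, *Tyro3* and *Gas6* were closest (0.11), then *Mertk* and *Mfge8* (0.18), and *Axl* and *Tyro3* were farthest apart (1.06). *Tyro3* had only 32, 21, 15 and 14 reads, so counting error leaves its nearest genes and its likeness to *Gas6* uncertain. With 4 libraries such likeness is a description of these libraries.

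The members act with other genes of dying-cell clearance, which were followed in 7 lists of 109 genes, 93 of them kept. The counts of each list are to be read beside the shares of all genes kept. In 4T1-CM, 12.2% of these were at least 2-fold higher and 6.12% lower with DMSO, and 12% and 7.86% with CH223191. Among other receptors and bridging molecules, 21 of 27 genes were kept, and 9 passed 2-fold upwards and 1 downwards in CM/DMSO than in NM/DMSO, with 8 and 6 in CM/CH223191 against NM/CH223191 (median log2 ratios 0.25 and 0.57). *Thbs1*, the bridging matrix protein thrombospondin 1, had 615 and 590 reads in normal medium and 16561 and 15619 in 4T1-CM, with log2 ratios of 4.61 and 4.69. *Cd14*, an endotoxin co-receptor that also tethers dying cells, had ratios of 3.52 and 3.83, *Havcr2* (TIM-3) 2.21 and 2.60, and *Cd300lf*, a phosphatidylserine receptor, 1.84 and 2.39. These ratios were all larger than that of *Axl*. Other genes of the list were lower in 4T1-CM: *Cd36* had 63262, 69640, 34849 and 33907 reads (-0.995 and -1.07). *Lgals3* stood at -0.80 and -1.28, *Cd300lb* at -0.99 and -1.48 and *Calr* at -0.66 and -1.06. In the additive edgeR fit, 10 genes of this list rose with 4T1-CM and 7 fell. The C1q genes *C1qa* (146, 229, 674 and 691 reads) and *C1qb* (164, 269, 808 and 809 reads), opsonins of dying cells, were higher in 4T1-CM, and like *Axl* they were higher with CH223191 in normal medium, at log2 ratios of 0.65 and 0.72. *Timd4*, the phosphatidylserine receptor of resident peritoneal macrophages, had 3 reads or fewer in every library.

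The integrin subunits that make the receptors of *Mfge8* were on the same list. *Itgav* had 2383, 1659, 2683 and 2520 reads, *Itgb3* had 1080, 1011, 610 and 516, and *Itgb5* had 5989, 4989, 4672 and 4630. In the additive edgeR fit *Itgb3* was lower in 4T1-CM (adjusted p = 0.000193), whereas *Itgav* and *Itgb5* did not pass (adjusted p = 0.144 and 0.100). These integrins were singled out for their tie to *Mfge8* after their values were known.

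In the engulfment machinery, 17 of 18 genes were kept, with 2 at least 2-fold higher and 1 lower with DMSO and 1 and 1 with CH223191 (medians -0.05 and 0.05). *Abca1*, a lipid exporter used after engulfment, was higher (2.65 and 2.68), and *Dock2*, an activator of Rac, was lower (-1.18 and -1.17). *Mapk12* had 0, 8, 11 and 7 reads, so its ratio with DMSO rests on a library without a read. *Src*, a kinase downstream of *Mertk*, stood at 0.82 and 0.92, *Abca7* at 0.70 and 0.47, *Rhog* at 0.69 and 0.09 and *Elmo1* at -0.16 and -0.26.

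The vitamin K cycle and Gla proteins, on which active *Gas6* and protein S depend, had 12 of 18 genes kept, with 2 at least 2-fold higher and 2 lower with DMSO and 1 and 2 with CH223191 (medians -0.06 and -0.21). *Vkorc1*, which recycles vitamin K, had 47, 76, 20 and 34 reads and was lower in 4T1-CM (-1.35 and -1.18). *Vkorc1l1*, on the same list, had far more reads and a smaller change, at 1509, 1379, 1247 and 1135 reads (-0.41 and -0.31). *F7*, coagulation factor VII, was also lower (-1.06 and -1.13), and the transmembrane Gla protein *Prrg1* was higher (1.43 and 1.51). *Ggcx*, the carboxylase itself, had 167, 156, 261 and 232 reads (0.51 and 0.54). *Nqo1*, an AHR target that can reduce vitamin K, had 28, 18, 70 and 33 reads with log2 ratios of CH223191 to DMSO of -0.62 (-1.57 to 0.27, holding 0) in NM and -0.97 (-1.62 to -0.36) in CM.

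Of the genes of phosphatidylserine exposure, 9 of 11 were kept, and 0 were at least 2-fold changed in either direction at either inhibitor state (medians 0.30 and 0.07), with 4 rising and 2 falling in the additive fit. *Xkr8*, a scramblase, stood at 0.77 and 0.69, *Tmem30a* at 0.30 and 0.66, *Panx1* at -0.55 and -0.42, and *Plscr1* at 0.37 and 0.01. The do-not-eat-me signals and their receptors, which oppose engulfment, had 7 of 7 genes kept, with 3 at least 2-fold higher and 0 lower with DMSO and 4 and 0 with CH223191 (medians 0.91 and 1.14). *Cd24a* had 538, 440, 2372 and 1656 reads, and *Cd47* stood at 0.91 and 1.14. *Siglecg* (3, 1, 23 and 12 reads) and *Pecam1* (3, 1, 31 and 22 reads) were also counted, on 3 reads or fewer in normal medium. *Pirb* stood at -0.17 and -0.53 and *Lilrb4a* at 0.39 and 0.22.

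Among shedding proteases and regulators of the TAM genes, 14 of 14 genes were kept, with 0 at least 2-fold higher and 2 lower with DMSO and 1 and 2 with CH223191 (medians -0.07 and -0.03). *Adam17*, a protease that sheds *Mertk* and *Axl* from the cell surface, had 3186, 2589, 5978 and 5138 reads (0.77 and 0.96). *Adam10*, the other protease of the list, changed less, at 2207, 2067, 2704 and 2540 reads (0.16 and 0.27). The nuclear receptors *Nr1h3* (LXRα) and *Pparg* induce *Mertk* and *Mfge8* in macrophages fed with dying cells. They were lower in 4T1-CM, at -0.72 and -1.56 for *Nr1h3* and -2.13 and -1.71 for *Pparg*. The other nuclear receptors of the list went both ways: *Ppard* stood at 0.64 and 0.68, *Nr1h2* at 0.12 and 0.01, *Rxra* at 0.17 and 0.12 and *Rxrb* at -0.39 and -0.53. Any tie of these values to *Mertk* and *Mfge8*, which were higher, was not tested. *Maf* stood at -1.05 and -0.31 and *Klf4* at 0.86 and 0.51. Of the partners and feedback genes of TAM signalling, 13 of 14 were kept, with 2 at least 2-fold higher and 0 lower with DMSO and 2 and 1 with CH223191 (medians -0.03 and 0.08). *Socs3*, a feedback inhibitor of cytokine signalling, had 20, 44, 1622 and 1385 reads (6.17 and 4.93). *Socs1*, of the same family, had 37, 24, 29 and 26 reads (-0.48 and 0.08, both intervals holding 0). *Ifnar1*, the receptor chain with which TAM receptors pair, stood at 0.97 and 0.96 and *Ifnar2* at 1.17 and 1.02. *Tyrobp*, an adaptor, was lower (-0.74 and -1.61).

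In the additive edgeR fit for 4T1-CM, 10 rose and 7 fell among the other receptors and bridging molecules, 4 and 3 in the engulfment machinery, 4 and 5 among the vitamin K-dependent genes, 4 and 0 among the do-not-eat-me genes, 4 and 6 among the regulators and 5 and 2 among the partners, beside the edgeR background of 16.4% and 16.2% of all genes, which was smaller by DESeq2. For CH223191, 0 genes of any list were called.

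**Figure D5:**
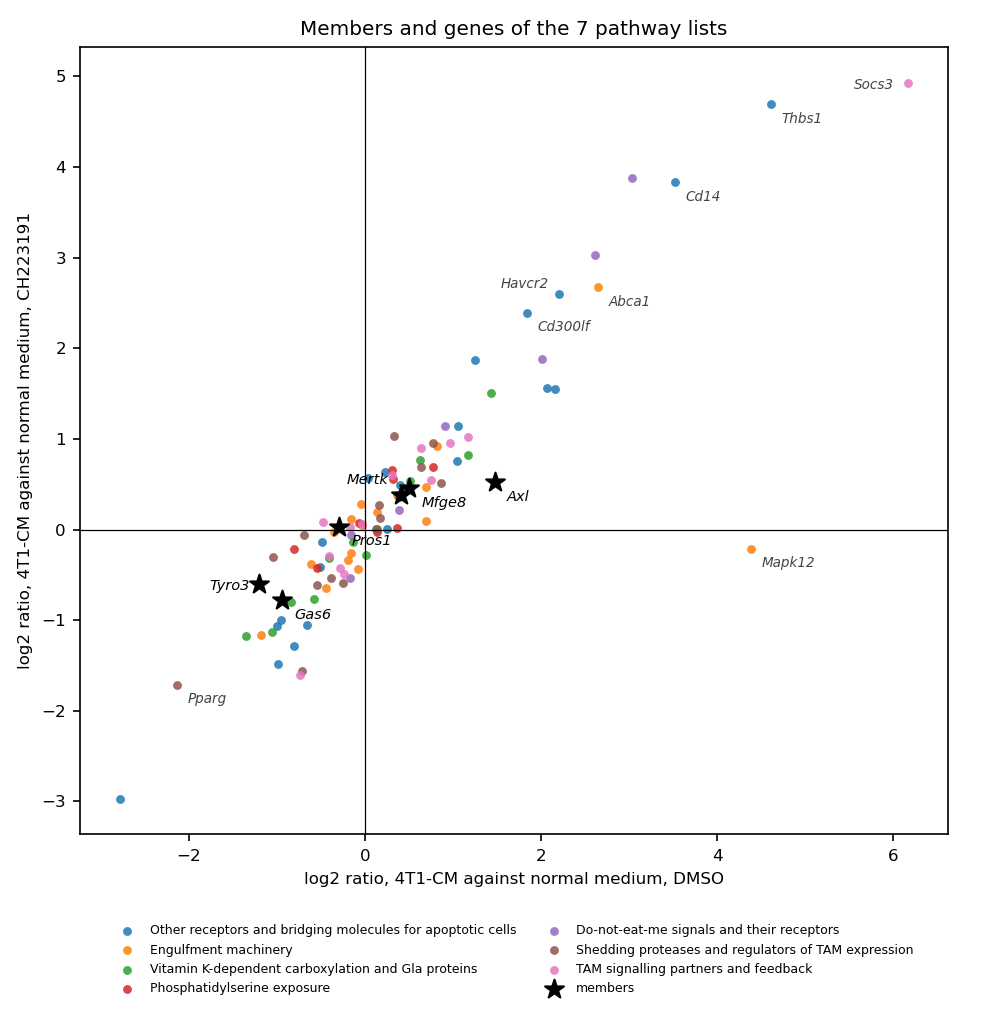
Each point is a gene of the 7 lists, placed by its log2 ratio of CM/DMSO to NM/DMSO (horizontal axis) and of CM/CH223191 to NM/CH223191 (vertical axis), and stars mark the members. *Axl* lies to the right of the diagonal, *Mertk* and *Mfge8* lie on it just above 0, *Gas6* and *Tyro3* lie in the lower left, and *Mapk12*, at the right, had 0 reads in NM/DMSO.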

How the data were processed

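Total RNA of peritoneal macrophages was sequenced as 4 libraries, 1 per condition. As deposited, the values are raw counts, whole numbers without normalization, in 1 table of 54532 genes, and all 4 count columns were matched to samples by the medium and inhibitor in their names and the sample titles. The submitters' processing notes name HISAT2 2.0.5 and DESeq2; the counting tool, its strand setting, genome build and annotation for these libraries are not given in the sources used here. Coordinates in the table equalled GENCODE M21 (GRCm38) for 53585 of 54495 shared genes. The members and all lists of genes were chosen with earlier results of these data known.

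Libraries were scaled by TMM (edgeR 4.0.16, R 4.3.3), keeping genes that reached 10 reads in some library. Log2 ratios use a prior count of 0.5 and carry exact Clopper-Pearson 95% intervals from how the reads divide between the pair (SciPy 1.17.1). Intervals cover counting error only, since each condition has 1 library. Reads without molecular identifiers are not independent molecules, so the intervals may be too narrow even for that error. Depth was similar in all libraries, at 15535405 to 17557127 reads. RPKM used the table's gene length. A gene was counted as changed at 2-fold. The additive fit (edgeR quasi-likelihood, median prior degrees of freedom 9.65) used an adjusted p of 0.05. Its 1 residual degree of freedom is the departure from additive effects of medium and inhibitor, moderated by the spread of other genes. Its p-values therefore do not measure the spread between libraries of 1 condition, and the departure may be technical. The scripts were tested on simulated counts.

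The text names all members, up to 4 genes per list with the largest mean ratio for 4T1-CM and up to 2 for CH223191 (at least 50 reads in 1 library), and 3 genes nearest in profile to each member. A gene that this rule would name is not reported here. Genes outside this rule (*Timd4*, *Ggcx*, *Itgav*, *Itgb3*, *Itgb5*, *Mapk12*, *Siglecg*, *Pecam1*, *Cd36*, *Cd300lb*, *Lgals3*, *Calr*, *Vkorc1l1*, *Adam10*, *Socs1*, *Ppard*, *Nr1h2*, *Rxra*, *Rxrb* and the marker genes) were chosen after their values were seen. Alternatives were DESeq2 1.42.0 size factors and Wald test, total counts, a prior count of 5, no filter, 10 reads in every library, protein-coding genes alone and levels without length.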

Additional observations from a re-analysis of the deposited data

Results flagged for a closer look

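*Axl* was the member whose response to CH223191 had opposite directions in the media, with both counting intervals clear of 0. The log2 ratio of CH223191 to DMSO was 0.71 in normal medium (214 against 131 reads) and -0.24 in 4T1-CM (315 against 400 reads). Each value compares 1 library with 1 library, and the difference was not tested.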

How the results depend on the processing

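No paired analysis was possible because each condition has 1 library and the labels give no replicate numbers, and for the same reason no library could be left out of a comparison. Of 72 alternative values of the 24 member ratios (other scaling, or a prior count of 5), 71 stayed within the counting interval of the value reported. The exception was *Mfge8*, whose ratio of CH223191 to DMSO in normal medium was -0.067 with total counts. Total counts moved the median of all genes by at most 0.06. Without length, 2 members changed rank in all libraries except normal medium with CH223191. In the additive fit *Mertk* rose by 0.39 with DESeq2 (adjusted p = 0.145), and no other call on a member for 4T1-CM was lost.

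The counts over all genes depended on the filter. For 4T1-CM, genes at least 2-fold higher and lower numbered 4601 and 2587 with DMSO and 4358 and 2995 with CH223191 without a filter, and 849 and 500, and 868 and 677, with 10 reads in every library. For CH223191 the counts were 2815 and 2260 in normal medium and 2583 and 2688 in 4T1-CM without a filter, and 226 and 89, and 83 and 53, with 10 reads in every library. They were 363 and 168, and 183 and 139, with a prior count of 5, and 363 and 261, and 159 and 210, for protein-coding genes alone. Among the list genes, 10 were lower in 4T1-CM with DMSO without a filter. With CH223191 in normal medium, 5 were higher and 4 lower without a filter, and 1 and 0 with a prior count of 5 or with 10 reads in every library. In 4T1-CM, 5 were higher and 3 lower without a filter, and 0 higher with 10 reads in every library. DESeq2 called 1205 genes higher and 1238 lower with 4T1-CM. For CH223191 the additive fit called 0 and 0 with total counts, and 162 and 31 without a filter. Having 1 library per condition limits all of these results, and depth limits *Tyro3*, at 14 to 32 reads.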
